A study of Homo sapiens with 6 samples.

Results

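The genes described here encode the enzymes that remove superoxide and peroxides directly: the glutathione peroxidases GPX1, GPX2, GPX3, GPX4, GPX7 and GPX8, the superoxide dismutases SOD1, SOD2 and SOD3, and catalase (CAT). They were taken by gene symbol from the deposited gene table, as a family chosen with earlier results of these data known, and all 10 had a row among its 16798 coding genes. Total RNA of COV434, an immortalized human line labelled as granulosa cells of WT genotype, was sequenced in 3 control samples and in 3 samples exposed to 15 µM 4HC for 24 h. 4HC is the active metabolite of the alkylating agent cyclophosphamide (CTX), and the treated samples carry the name CTX in their titles. The labels name no vehicle for the controls, both groups are the same line in the same medium, and neither the labels nor the methods say whether the 3 samples of a group were grown as separate cultures, so that p-values measure the spread between these samples, which may be technical.

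Superoxide dismutases turn superoxide into hydrogen peroxide and oxygen, SOD1 with copper and zinc mainly in the cytosol, SOD2 with manganese in the mitochondrial matrix and SOD3 with copper and zinc outside the cell. Hydrogen peroxide is then broken down by catalase in peroxisomes and, at the expense of glutathione, by glutathione peroxidases. GPX4 is the member that reduces lipid hydroperoxides within membranes, and its loss of activity is a known trigger of ferroptosis, the iron-dependent form of cell death that the study addressed. GPX1, GPX2, GPX3 and GPX4 carry selenocysteine in their active site, whereas GPX7 and GPX8 carry cysteine and reside in the endoplasmic reticulum.

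Library totals of expected counts ranged from 16133786 to 16702316. Of 10 granulosa cell markers, 9 had a row in the table and 3 reached 1 TPM (a level scaled to transcript length and to the total of the sample) in any sample, namely WT1 with 103 to 135, AMH with 3.94 to 6.73 and INHA with 0.72 to 1.73. FOXL2, FSHR, CYP19A1, NR5A1 and STAR were at no more than 0.11 TPM, so most defining markers of the labelled cell type were at or near 0, and the cells are called COV434 cells below. The summed TPM of these markers was 138 to 142 in control and 110 to 116 in 4HC, and its part in the results below was not tested. In bulk RNA, fewer cells with a transcript and less of it in each cell cannot be told apart.

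The upstream sequences of GPX4, of SOD2 and of CAT are shown because these are the most abundant glutathione peroxidase, the mitochondrial dismutase and the catalase of these cells. RefSeq promoter windows (GRCh38.p14, 250 bases before to 50 bases after a start site) were matched by symbol for 9 of the 10 genes, in 14 windows, with no entry for SOD1. Each run below is 120 bases, read 5′ to 3′ on the gene's strand, and ends before the first exonic base that GENCODE annotates in its window. For SOD2 this is the window of the start site at chr6:159693241, where SOD2-205 begins. The run ends before SOD2-210, which begins upstream of that site at chr6:159693328, and 3 other SOD2 windows lie further upstream. Capitals mark GC boxes (GGGCGG) and CCAAT boxes (CCAAT) on either strand, and 1 pair of GC boxes in SOD2 overlaps.
GPX4, chr19:1103806-1103925, plus strand: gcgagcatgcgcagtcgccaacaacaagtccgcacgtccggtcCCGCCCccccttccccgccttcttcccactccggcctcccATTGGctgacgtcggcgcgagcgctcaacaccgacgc
SOD2, chr6:159693329-159693448, minus strand: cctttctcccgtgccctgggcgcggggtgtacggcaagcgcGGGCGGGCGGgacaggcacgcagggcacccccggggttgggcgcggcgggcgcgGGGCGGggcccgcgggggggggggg
CAT, chr11:34438805-34438924, plus strand: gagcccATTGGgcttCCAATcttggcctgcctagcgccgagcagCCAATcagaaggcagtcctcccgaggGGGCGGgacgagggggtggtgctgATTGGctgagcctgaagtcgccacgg
The GPX4 run holds 1 GC box and 1 CCAAT box. The SOD2 run holds 3 GC boxes and no CCAAT box, and the CAT run holds 1 GC box and 4 CCAAT boxes. Over the whole windows, a GC box was present in 12 of 14 and a CCAAT box in 8 of 14, against 45.0% and 34.6% of the 35116 promoters of the same length. The core of the antioxidant response element (TGACNNNGC, searched on both strands), which NRF2 is known to bind, was present in 1 of the 14 windows, that of GPX2, with its first base at -122 from the start site, and in 13.3% of all promoters. Windows of the same gene can overlap, and these matches describe letters and not bound sites.

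On the TPM scale, which allows genes to be compared, 2 of the 10 genes stood far above the rest. SOD1 (NCBI Gene 6647, chr21:31659666-31668931, GRCh38) was at 374 ± 7.6 TPM in control (SD, n = 3) and GPX4 (NCBI Gene 2879, chr19:1103994-1106779) at 371 ± 5.86. Their control samples ranged from 365 to 379 TPM for SOD1 and from 365 to 376 for GPX4, so the order of these neighbours was not resolved. SOD2 (NCBI Gene 6648, chr6:159669069-159762281) followed with 62.4 ± 1.17 TPM, CAT (NCBI Gene 847, chr11:34438934-34472060) with 37.0 ± 1.78 and GPX8 (NCBI Gene 493869, chr5:55160155-55167297) with 2.59 ± 0.303, and the samples of these neighbours did not overlap in either group. By rank among all genes of a control sample, GPX4 stood between 330 and 347 and SOD1 between 329 and 341, SOD2 between 2179 and 2245 and CAT between 3489 and 3748. In 4HC the rank of GPX4 was between 283 and 303 and that of SOD1 between 289 and 318.

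GPX1 (NCBI Gene 2876, chr3:49357176-49358353), the cytosolic peroxidase that many cell types make in quantity, had a summed count of 17 in the 3 controls and 6 in the 3 samples treated with 4HC. Its expected counts were 4, 10 and 3 in control and 3, 3 and 0 in 4HC, which is at most 1.38 TPM. GPX2 (NCBI Gene 2877, chr14:64939158-64942745), known from the gut epithelium, had counts of 0, 3 and 1 in control and 3, 2 and 1 in 4HC. GPX3 (NCBI Gene 2878, chr5:151020591-151028988), the secreted plasma enzyme, had 3 counts in control replicate 3 and 0 in the other 5 samples.

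GPX7 (NCBI Gene 2882, chr1:52602371-52609051) had 1 count among the 6 samples, in 4HC replicate 2. SOD3 (NCBI Gene 6649, chr4:24789912-24802734), the extracellular dismutase, had counts of 1, 1 and 0 in control and 4, 0 and 0 in 4HC. A count of 0 allows up to 3 counts in a sample, or 0.18 to 0.186 CPM (counts scaled to 1e+06 per library). These 5 genes were thus at or near the limit of detection in both groups, and a difference was hard to detect at this depth. None of them passed the filter on low counts. When the filter was dropped, edgeR's quasi-likelihood test gave GPX1 a log2 fold change of -1.45 (unadjusted p = 0.0453), on the few counts above. After Benjamini-Hochberg adjustment the p-value of GPX1 was 0.135 and those of GPX2, GPX3, GPX7 and SOD3 were 0.253 to 0.762. Expression of the glutathione peroxidase genes in these cells therefore rested almost wholly on 1 gene. GPX4 held 98.9 to 99.1% of the summed TPM of the 6 glutathione peroxidase genes in control and 99.3 to 99.4% in 4HC. GENCODE lists pseudogenes named for GPX1 (2), SOD1 (3) and SOD2 (1), to which reads of these genes could be lost or from which they could be gained, as the table lists coding genes only.

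**Figure D1:**
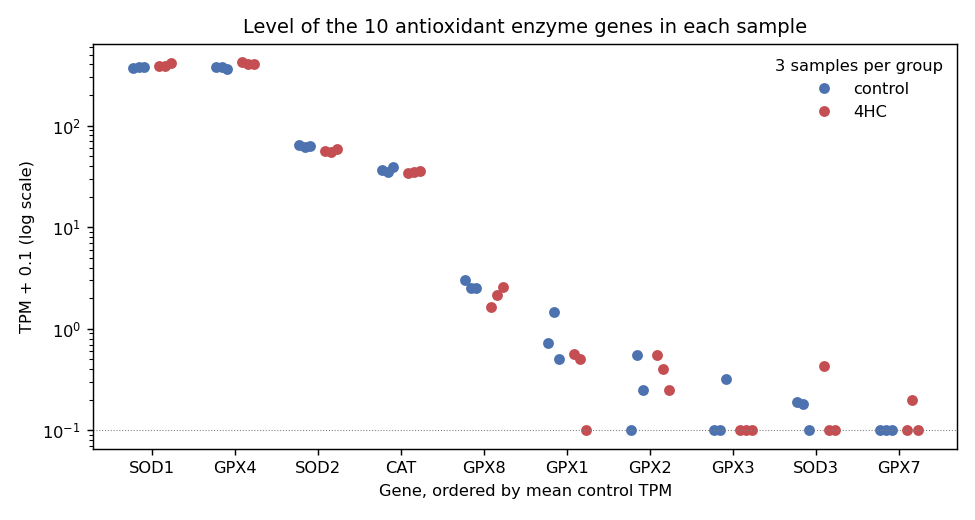
TPM of each of the 10 genes in every sample, plotted as TPM + 0.1 on a log scale, with the genes ordered by their mean control TPM, control samples in blue and 4HC samples in red (3 each). SOD1 and GPX4 lie between 365 and 419 TPM, SOD2 and CAT between 34.1 and 63.7, GPX8 between 1.55 and 2.94, and the other 5 genes at or below 1.38, with a TPM of 0 on the dotted line.

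The comparison of 4HC with control asks whether exposure to the CTX metabolite altered the transcripts of these enzymes. Of the 5 genes tested, GPX4 and SOD1 rose in 4HC, none fell, and SOD2, CAT and GPX8 did not pass an adjusted p-value of 0.05. The differences of GPX4, SOD1, SOD2 and CAT were at most 0.15 in absolute log2 fold change. GPX8 had the largest, -0.35, and 13.5% of the genes tested had a larger absolute log2 fold change. The median absolute log2 fold change of the 5 genes was 0.10, against 0.13 over the 12368 genes tested and 0.23 over the genes called. Across all genes tested, 36.4% were called, 19.2% higher and 17.1% lower, so 2 of 5 was a share near the background. Among genes with a mean of at least 20 CPM, 44.0% were called, beside 2 of the 4 members at that level. No member passed a fold change of 2, the threshold of the study's methods, which 1.15% of genes passed at an unadjusted p-value under 0.05. In 3 of the 5 genes the groups did not overlap, a property that 45.3% of all genes tested had.

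GPX4 was the member with the strongest call. Its CPM, scaled by the TMM method, was 126, 127 and 121 in control and 141, 137 and 136 in 4HC. All 3 treated samples lay above all 3 controls. The means were 125 ± 2.88 and 138 ± 2.4 CPM, which is 1.11-fold or 0.15 on the log2 scale (95% interval 0.07 to 0.22, standard error 0.039, adjusted p = 0.00199). Its TPM rose from 371 ± 5.86 to 408 ± 10. The direction and the call were kept in all 14 alternatives tried, in which the adjusted p-value was 0.000461 to 0.0269. In size the change of GPX4 was ordinary for these samples, as 44.3% of the genes tested had a larger absolute log2 fold change.

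GPX8 is a peroxidase of the endoplasmic reticulum membrane. Its CPM was 6.41, 5.29 and 5.25 in control and 3.38, 4.56 and 5.39 in 4HC. The groups overlapped, because 4HC replicate 3 lay within the control range while the other 2 treated samples lay below it. The log2 difference of -0.35 had the widest error of the 5 genes (standard error 0.15, 95% interval -0.65 to -0.04) and an adjusted p-value of 0.0665. The value depended on which sample was left out. Dropping 4HC replicate 3 gave -0.51 with an adjusted p-value of 0.0122, dropping 4HC replicate 1 gave -0.19 with 0.401, and dropping control replicate 1 gave -0.25 with 0.279. The counts behind it were 56 to 104 per sample, against 2012 or more for GPX4.

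SOD1, the copper-zinc dismutase, rose by less than GPX4. Its CPM was 141, 148 and 146 in control and 151, 152 and 162 in 4HC. The treated samples all lay above the controls, but control replicate 2 and 4HC replicate 1 were only a few CPM apart. The group means of 145 ± 3.19 and 155 ± 6.23 CPM differed 1.07-fold, or by 0.10 on the log2 scale (95% interval 0.02 to 0.17, standard error 0.038, adjusted p = 0.0406). This call was lost in 9 of the 14 alternatives, with DESeq2 at an adjusted p-value of 0.0995. Leaving out control replicate 1 gave 0.08 with an adjusted p-value of 0.181, leaving out control replicate 3 gave 0.10 with 0.0898, and leaving out 4HC replicate 3 gave 0.06 with 0.25.

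SOD2, the manganese dismutase of mitochondria, had 319, 303 and 311 CPM in control and 291, 297 and 299 in 4HC. All treated samples lay below all controls. The log2 difference was -0.07 (95% interval -0.14 to -0.01, standard error 0.033), and the adjusted p-value of 0.0758 did not pass. On the TPM scale the difference was larger, with 63.7, 61.3 and 62.2 TPM in control and 55.9, 54.3 and 58.5 in 4HC. With limma on log2(TPM + 1) the difference was -0.15 and passed (adjusted p = 0.0182), as it did on counts once control replicate 2 was left out (-0.09, adjusted p = 0.0375). The expected counts that made 1 TPM of SOD2 were 81.3, 80.3 and 82.9 in control and 86.4, 88.7 and 83.4 in 4HC, whereas those of SOD1 were 6.28 to 6.37 and 6.37 to 6.44. Counts per TPM are the quotient of both scales, so these values restate the unequal size of the SOD2 difference. They rise with the transcript length assigned to a gene, and the part of that length was not tested.

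The ratio of SOD1 to SOD2 was compared within samples. In expected counts it was 0.443, 0.487 and 0.468 in control and 0.52, 0.511 and 0.543 in 4HC, and in TPM it was 5.74, 6.16 and 6.09 against 6.97, 7.1 and 7.11. On either scale every treated sample had a higher ratio than every control. This had to follow, because SOD1 lay above and SOD2 below all controls in every treated sample. The difference of the count ratio was 0.17 on the log2 scale. The exact permutation test gave a two-sided p of 0.1, the smallest that 3 against 3 samples allow. That value was fixed by the separation of both genes, so the ratio is a description and no further test.

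CAT, the peroxisomal enzyme that splits hydrogen peroxide without a reducing partner, had 47.1, 45.5 and 49.4 CPM in control and 43.6, 45.1 and 45.8 in 4HC. The groups overlapped through control replicate 2 and 4HC replicate 3. The difference on the log2 scale, -0.08 with a 95% interval of -0.18 to 0.03 (standard error 0.053), was not called (adjusted p = 0.261), and neither was it in any alternative. The ratio of GPX4 to CAT in TPM was 9.4 to 10.6 in control and 11.3 to 12.3 in 4HC. That the groups did not overlap followed from the TPM ranges of the genes, as GPX4 alone was higher in every treated sample than in every control. The ratio is a description and no further test. The 10 genes together summed to 845, 853 and 848 TPM in control and to 901, 879 and 915 in 4HC, most of which was SOD1 and GPX4.

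**Figure D2:**
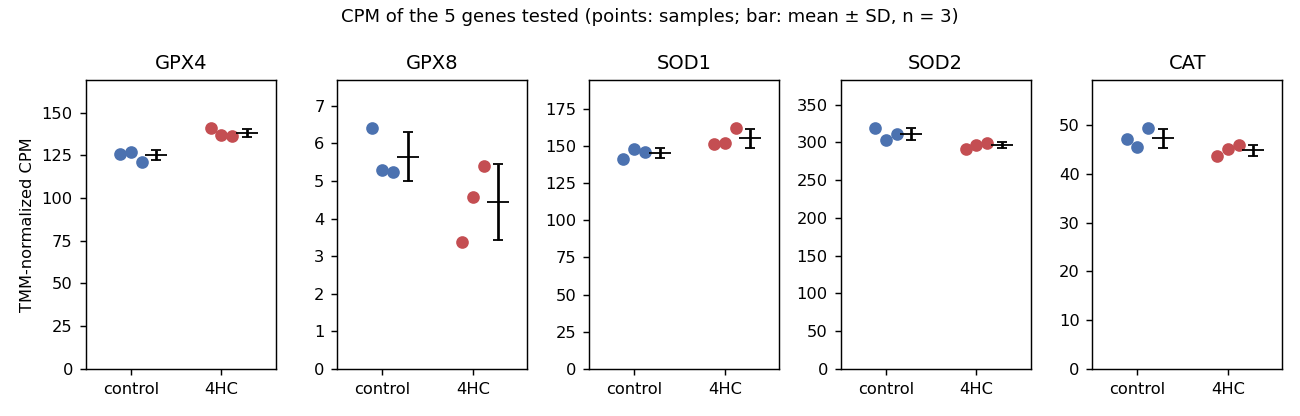
TMM-normalized CPM of the 5 tested genes, 1 panel per gene with its axis from 0, with control samples in blue, 4HC samples in red and the mean ± SD of each group in black (n = 3). GPX4 and SOD1 are higher and SOD2 is lower in all 3 treated samples than in all 3 controls, while the groups overlap in GPX8 and CAT.

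**Figure D3:**
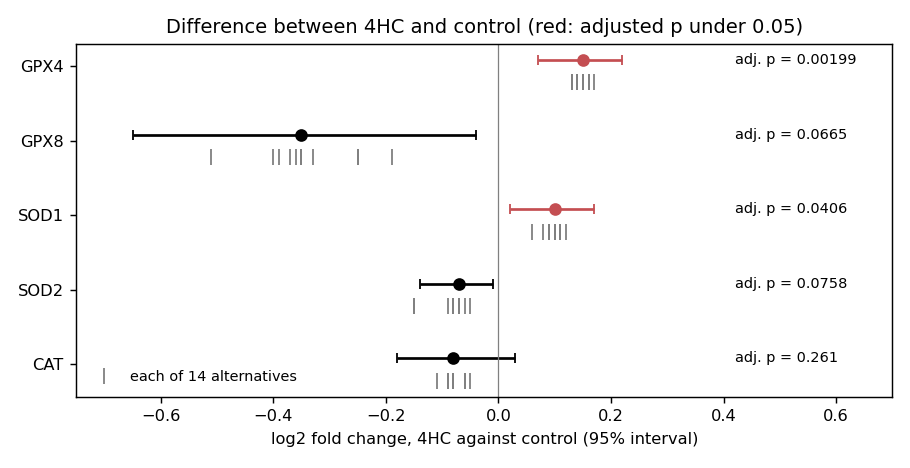
Log2 fold change of 4HC against control for each tested gene with its 95% interval and adjusted p-value (red for adjusted p under 0.05), above grey ticks for the 14 alternatives. The ticks of GPX4 stay between 0.13 and 0.17 and those of SOD1 between 0.06 and 0.12, while those of GPX8 spread from -0.51 to -0.19.

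The authors' program also divided the reads of a gene among its transcripts, 28 for the 10 genes, of which 15 could be tested. None of the 15 was called (lowest adjusted p = 0.42, edgeR's quasi-likelihood test with Benjamini-Hochberg adjustment over 42216 transcripts), and 3 had an unadjusted p-value under 0.05. Of all transcripts tested, 1.29% were called and 4640 had an unadjusted p-value under 0.05. The spread between replicates was far larger for transcripts (biological coefficient of variation 0.724) than for genes (0.0277), and the uncertainty of the division was not modelled.

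SOD2 reads were divided among 9 transcripts. The main one, SOD2-210, has 5 exons and 14266 bases, and it held 60.1, 63.7 and 70.4% of the gene's counts in control and 65, 55.7 and 48.9% in 4HC. The groups overlapped through 4HC replicate 1. The RefSeq transcript NM_001322820 had 218, 427 and 143 expected counts in control and 273, 574 and 1193 in 4HC, so that 4HC replicate 3 was set apart from the rest (unadjusted p = 0.081, adjusted p = 0.571). In the GENCODE annotation SOD2 shares 1141 exonic bases with ACAT2 and 437 with WTAP, both on the opposite strand, and 939 with SOD2-OT1 on the same strand. Whether the libraries kept strand is not given in the sources used here, so reads of SOD2 and of these neighbours may not be told apart. No other member shared exonic bases with another gene.

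GPX4 reads fell on 4 transcripts. NM_001367832 held 58.3 to 63.2% in control and 57.6 to 65% in 4HC, and GPX4-201 held 32.7 to 38.3% and 30.6 to 37.7%. GPX4-213, which starts at an internal first exon, held 2.05 to 3.15% and 2.75 to 3.68%. GPX4-212 had 20.8, 16.3 and 26.6 counts in control and 30.9, 42.8 and 31.7 in 4HC, without overlap but with an adjusted p-value of 0.736. The make-up of GPX4 by transcript overlapped between the groups for the other 3. In GPX8, the transcript GPX8-203 held 82.4 to 83.4% of the counts in control and 69.7 to 81.5% in 4HC, a description without a test. SOD1 and CAT had 1 transcript each.

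Genes that supply or assist these enzymes were counted from lists, and none of the lists had a median log2 fold change beyond 0.08 in size. The median over all genes tested was 0.005. The counts of each list stand beside 36.4% called among all genes tested, 19.2% higher and 17.1% lower, and nothing is read from them as particular to a list. Glutathione peroxidases depend on glutathione, and of 18 tested genes for its supply and recycling 6 rose and 3 fell. GSS, which joins glycine in the last step of glutathione synthesis, rose from 108 ± 2.12 to 137 ± 5.62 CPM (0.35 on the log2 scale, adjusted p = 5.97e-10). CHAC1, which degrades glutathione, fell from 9.29 ± 1.15 to 6.78 ± 0.568 CPM (log2 fold change -0.46, adjusted p = 0.00164), and IDH1, a cytosolic source of NADPH, fell from 67.6 ± 2.53 to 53.4 ± 0.768 CPM (log2 fold change -0.34, adjusted p = 1.12e-07). GGT1 and GGT7, of the family whose members cleave glutathione outside the cell, rose by 0.92 (adjusted p = 4.45e-05) and 0.22 (adjusted p = 0.0243) on the log2 scale. GGT1 was at 2.41 ± 0.476 CPM in control and 4.56 ± 0.616 in 4HC, under the 5 CPM asked of genes named by the size of their change. The other called genes of this list were IDH2 (0.29), NNT (0.23) and GGCT (0.19), which rose, and SLC3A2 (-0.12), which fell. GGT1, GGT7 and these genes were named after their values were seen. Of 14 tested genes of the peroxiredoxin and thioredoxin system, the other route for hydrogen peroxide, 4 rose and none fell, beside 36.4% called and 19.2% called higher overall. The largest were TXN2, the mitochondrial thioredoxin, with a log2 fold change of 0.20, PRDX5, a peroxiredoxin, with 0.14 and TXN, the cytosolic thioredoxin, with 0.13.

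GPX4 is made with selenocysteine. Of 11 genes for its synthesis and insertion, 2 rose and 3 fell. SECISBP2, which binds the selenocysteine insertion element of the messenger, fell from 45.2 ± 1.32 to 37 ± 2.37 CPM (log2 fold change -0.29, adjusted p = 4.34e-05). SARS1, which charges the selenocysteine tRNA with serine, rose from 189 ± 2.26 to 227 ± 3.82 CPM (log2 fold change 0.27, adjusted p = 1.42e-08), and TRNAU1AP, a partner of that tRNA, rose by 0.21. Other selenoproteins moved in both directions, with 2 of 16 higher and 4 lower, led by SELENOO of mitochondria (log2 fold change 0.22), SELENOS of the endoplasmic reticulum membrane (-0.18) and SELENOI, an enzyme of phospholipid synthesis (-0.16).

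The dismutases need their metals and catalase needs import into peroxisomes. Of 9 tested genes of copper and manganese delivery, the copper pump ATP7A rose, with a log2 fold change of 0.21 although its groups overlapped, and SLC39A14, a carrier of manganese and zinc, fell from 160 ± 3.42 to 139 ± 1.11 CPM (log2 fold change -0.21, adjusted p = 1.21e-05). Of 13 genes of peroxisomal import none rose and 3 fell, beside 36.4% called and 17.1% called lower overall. They were PEX5, the receptor of the targeting signal, with -0.20, PEX13, its docking partner, with -0.15 and PEX19, the chaperone of membrane proteins, with -0.13. Of 23 listed enzymes that produce superoxide or hydrogen peroxide, 6 were expressed well enough for a test, and none of the 6 was called.

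For oxidative folding in the endoplasmic reticulum, where GPX7 and GPX8 act, 2 of 13 genes rose and 5 fell. HSPA5, the main chaperone there, fell from 555 ± 16 to 442 ± 7.93 CPM (log2 fold change -0.33, adjusted p = 2.68e-12), VKORC1L1 fell by 0.23 on the log2 scale, and ERO1B, an oxidase that yields hydrogen peroxide, rose by 0.35. Beside GPX4 in the defence against lipid peroxides or in the make-up of membrane lipids, 3 of 13 genes rose and 4 fell. MBOAT1, an acyltransferase of phospholipids, rose from 4.03 ± 0.527 to 6.21 ± 0.652 CPM (log2 fold change 0.62, adjusted p = 0.00052) and LPCAT3, which places polyunsaturated chains into phospholipids, by 0.26. SCD, which makes monounsaturated fatty acids, fell from 2880 ± 99.4 to 2430 ± 124 CPM (log2 fold change -0.24, adjusted p = 7.33e-09). Of 13 factors known to act on genes of this kind, 2 rose and 3 fell, with PPARGC1B at -0.35, FOXO3 at -0.23 and KEAP1, which binds and restrains NRF2, at 0.26. The other called factors, named after their values were seen, were FOXO1 at 0.54 and FOXO4 at -0.15. FOXO1 was at 1.86 ± 0.22 CPM in control and 2.71 ± 0.377 in 4HC, under 5 CPM. GPX5 and GPX6, the remaining members of the glutathione peroxidase family, had no row in the gene table and so could not be analysed.

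**Figure D4:**
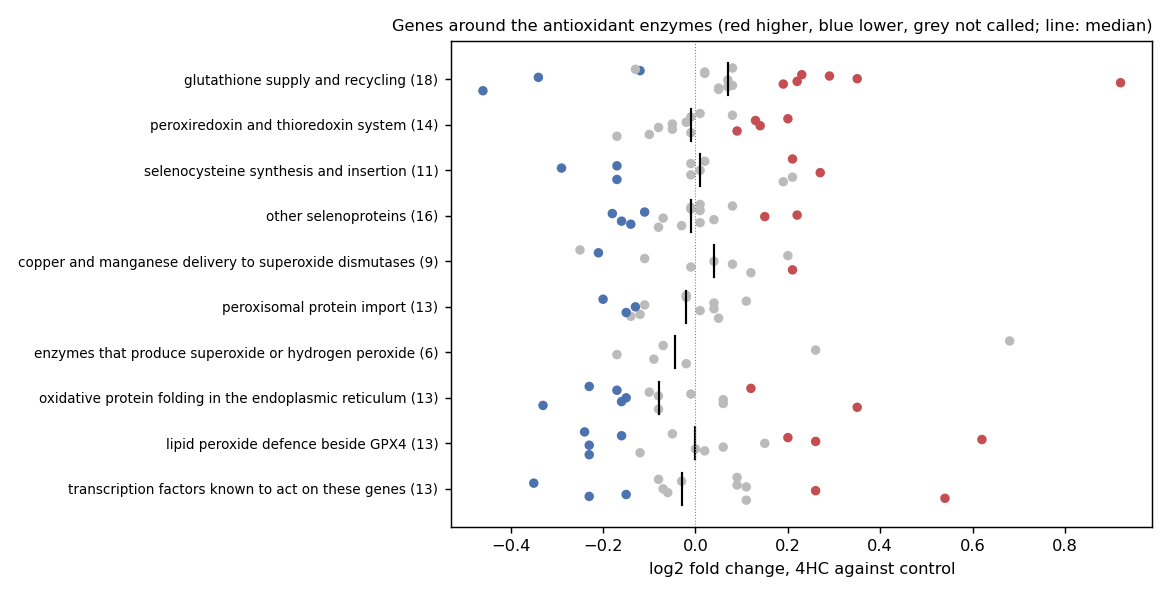
Log2 fold change of every tested gene in 10 lists around the antioxidant enzymes, with the number tested in parentheses, genes called higher in red, called lower in blue and not called in grey, and a black line at the median of each list. The medians lie between -0.08 and 0.07, and every list holds genes on both sides of 0.

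The genes whose log2 CPM followed GPX4 most closely over the 6 samples were MAST2 (Pearson r = 0.9994), RTL10 (0.9979) and PDLIM1 (0.9951), out of 10272 genes with a mean of at least 5 CPM. All 3 were higher in 4HC, MAST2 with 66.9 ± 3.76 against 85.1 ± 3.82 CPM, and as in GPX4 their groups did not overlap. Both traits follow from their choice by likeness to GPX4, and groups did not overlap in 45.3% of all genes tested. With 6 samples that share their grouping and so many genes compared, these values are a description.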

How the data were processed

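Total RNA of 3 control and 3 4HC-treated samples was sequenced, and groups were taken from the sample labels. Per the labels, the authors filtered reads with SOAPnuke, and the submitters' processing notes name HISAT2, Bowtie2, RSEM 1.3.1, DESeq2 1.4.5 and GRCh38.p13 without a role. The authors deposited an expected count per gene and per transcript, without normalization, and TPM values, scaled to transcript length and library size. FPKM columns, a second gene table and columns of the authors' own comparison (log2 fold changes, p- and q-values) were not used.

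Expected counts were rounded to whole numbers (85.5% were whole) and fitted over all genes with edgeR 4.0.16 in R 4.3.3 (TMM, filterByExpr, quasi-likelihood test, group only), with Benjamini-Hochberg adjustment over the 12368 genes tested and a threshold of 0.05. The test was first tried on simulated data. Totals of 16133786 to 16702316 per sample allow up to 3 counts where 0 were seen, which covers counting error only. Every replicate pair differed by more than sampling noise (chi-square per gene 1.7 to 2.47). Alternatives were DESeq2 1.42.0, other scalings and filters, the replicate block, limma 3.58.1 on log2(TPM + 1) or log2(TPM + 0.1), and removal of each sample. Genes named were all 10 members, up to 3 called genes per list with the largest change and at least 5 CPM, and the 3 genes most like GPX4. The remaining called genes of the lists of glutathione supply and of transcription factors were added after their values were seen. The members and lists were chosen with earlier results of these data known. Promoters came from RefSeq and exons from GENCODE release 29.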

Additional observations from a re-analysis of the deposited data

How the results depend on the processing

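GPX4 kept its direction and its call in all 14 alternatives, and CAT stayed without a call in all 14 (log2 fold change -0.11 to -0.05). No log2 fold change of the 5 genes reversed. The number of these genes called higher was 2, and it was 1 with DESeq2, with DESeq2's size factors, with no filter on low counts, with limma on log2(TPM + 1) and with limma on log2(TPM + 0.1). In each of these SOD1 lost its call, at adjusted p-values of 0.0995, 0.0533, 0.059, 0.0907 and 0.09, and the cause was not tested. With limma at either pseudocount 1 gene was called lower, against 0 with edgeR on counts; this was SOD2. When 1 sample was left out at a time, the number called higher was between 1 and 2 and the number called lower between 0 and 1. The deviations of samples with the same replicate number correlated at 0.00866, 0.0694 and 0.0302, and those with different numbers at -0.08 to 0.0455. These values gave no clear sign of pairing, but 3 samples per group cannot settle whether the samples were paired. With the replicate block, 1 of these genes was called higher and SOD1 had an adjusted p-value of 0.0542, and 4213 genes were called in all, against 4497 without it. No transcript of the 10 genes was called in any alternative run. At this depth a count of 0 allows up to 3 counts, so a difference in the 5 untested genes was hard to detect, and GPX8 rested on 56 to 104 counts per sample.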
